A study of Mus musculus with 80 samples.

Results

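The metallothionein cluster of the mouse holds the neighbouring genes Mt4, Mt3, Mt2 and Mt1 on chromosome 8 of the mm10 genome, all 4 read from the plus strand. Its members were taken by name, because the coverage of these genes by H3K27me3 peaks in these same lists had drawn attention to them, and they are 4 of the 21627 protein-coding genes measured on chromosomes 1 to 19 and X. Their coverage and peaks are therefore given as a description, with no test. H3K27me3, trimethylation of lysine 27 of histone H3, was mapped by CUT&RUN, in which a nuclease tethered by an antibody cuts out the marked chromatin, in fibroblasts purified on magnetic beads from digested mouse uterus.

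The 16 deposited peak lists form 2 sets, and each list pools the 3 libraries of 1 group, so no list has a replicate value of its own. In the Kdm6b set the knockout mice carried Kdm6b f/f alleles with a Cre transgene (Kdm6b cKO), and their controls carried Kdm6b f/f without Cre. Pgr-Cre acts where the progesterone receptor gene is expressed, which in the uterus takes in more than fibroblasts, and Pdgfra-Cre where Pdgfra is expressed. All of these females were mated to B6 males. With Pgr-Cre there were cKO and control lists of the implantation site (IS) at GD14.5 and GD18.5, GD being the gestation day, and of the inter-implantation site (IIS) at GD5.5, GD8.5 and GD14.5. With Pdgfra-Cre there was a pair of lists of the IS at GD14.5, which makes 6 pairs and 12 lists. The B6CBAF1/J set holds 4 lists from mice without these alleles: the IIS at GD5.5 after natural mating, the uterus at GD5.5 after mating to a vasectomized male, the uterus of non-pregnant mice given progesterone for 3 days, and the uterus at GD0.5. Of 80 labelled samples, 48 entered the lists, and the other 32 were not analysed here. They are inputs and further H3K27me3 libraries of Pgr-Cre cKO and control mice, from the IIS at GD5.5 and the uterus at GD0.5.

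Metallothioneins are small cysteine-rich proteins that bind zinc, copper and cadmium and buffer the free metal in the cell. Mt1 and Mt2 are expressed in most tissues and are induced by zinc, cadmium, glucocorticoids and oxidative stress; the zinc-sensing factor Mtf1 drives them through metal response elements in their promoters. Mt3 is known chiefly from the brain, and Mt4 from stratified squamous epithelia. H3K27me3 is laid down by the Polycomb repressive complex and is found over genes that are held silent, and Kdm6b is a demethylase that removes it.

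Mt4 spans chr8:94137204-94139031, Mt3 spans chr8:94152607-94154148, Mt2 spans chr8:94172618-94173567 and Mt1 spans chr8:94178883-94180327. The 250 bases before each tabulated start are shown because the peaks covered these 4 promoters unequally. They were taken from the RefSeq promoter table of GRCm38.p6 (mm10), plus strand, 5′ to 3′, where all 4 genes matched by symbol. The windows are chr8:94136954-94137203 for Mt4, chr8:94152357-94152606 for Mt3, chr8:94172368-94172617 for Mt2 and chr8:94178839-94179088 for Mt1, whose tabulated start lies inside the gene span. Capitals mark matches to the metal response element cores TGCACNC and TGCGCNC, searched on both strands.
Mt4: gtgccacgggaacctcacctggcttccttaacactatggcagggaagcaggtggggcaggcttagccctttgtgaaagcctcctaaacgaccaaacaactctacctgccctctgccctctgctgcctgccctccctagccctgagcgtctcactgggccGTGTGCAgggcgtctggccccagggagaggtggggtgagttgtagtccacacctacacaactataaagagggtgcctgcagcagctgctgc
Mt3: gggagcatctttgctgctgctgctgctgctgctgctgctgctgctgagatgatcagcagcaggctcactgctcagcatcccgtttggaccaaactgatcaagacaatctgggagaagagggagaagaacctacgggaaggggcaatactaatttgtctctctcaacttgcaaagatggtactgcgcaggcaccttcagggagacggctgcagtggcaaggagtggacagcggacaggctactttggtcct
Mt2: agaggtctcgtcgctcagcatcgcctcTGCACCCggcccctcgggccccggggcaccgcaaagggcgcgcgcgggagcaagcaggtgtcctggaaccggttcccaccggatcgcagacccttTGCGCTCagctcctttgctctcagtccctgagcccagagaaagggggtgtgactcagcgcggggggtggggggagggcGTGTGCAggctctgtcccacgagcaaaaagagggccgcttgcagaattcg
Mt1: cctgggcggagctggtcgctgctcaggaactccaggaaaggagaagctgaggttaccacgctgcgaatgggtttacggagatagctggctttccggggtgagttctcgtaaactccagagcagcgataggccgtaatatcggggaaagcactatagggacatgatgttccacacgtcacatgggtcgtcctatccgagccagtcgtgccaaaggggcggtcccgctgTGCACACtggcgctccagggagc
Mt2 held 3 matches, with first bases at -223, -128 and -50 counted from the start, the last of them on the minus strand. The Mt1 window held 1 match at -23, that of Mt4 held 1 on the minus strand at -91, and that of Mt3 held 0. Bases beyond each window were not searched, and the Mt1 window is set by a start other than that of its gene span. These counts therefore hold for the windows shown and do not give the number of such elements at each gene. Of 27025 promoters of the same length, 21.3% held at least 1 match and 1.28% at least 3. The Mt2 and Mt1 windows were rich in CpG, with 21 and 17 CpG dinucleotides, while the Mt3 and Mt4 windows held 5 each, beside a median of 6 over all promoters. A match of letters is a description and says nothing of binding.

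Coverage is the share, in percent, of a gene span with 2 kb added at each end that peaks overlie, and fold is the authors' own value of a peak over background. The lists were lenient. The Kdm6b set lists held 221350 to 287629 peaks over 609 to 740 Mb with a median fold of 1.12 to 1.15, and the B6CBAF1/J lists held 131900 to 167542 peaks over 681 to 704 Mb with a median fold of 1.09. Mean coverage over all genes was 22.6% to 24.3% in cKO and 22.3% to 25.4% in control lists, lower in the cKO list in 5 of 6 pairs, and 23.6% to 24.5% in the B6CBAF1/J set. The cKO list was the longer in covered length in 5 of 6 pairs. Peaks with −log10 q of at least 2 made up 0.0501% to 0.195% of cKO and 0.142% to 0.830% of control lists, and their share was lower in the cKO list in 5 of 6 pairs; the part of these differences between lists in the results was not tested. The lists give no read depth, so the sequencing behind each value is unknown. The label of fibroblast was set against 9 markers: 7 of them, the collagens Col1a1, Col1a2 and Col3a1 included, had coverage of 0 in all 16 lists, while Thy1 reached 40.6% and Pdgfra lay between 9.29% and 34.6%. The median coverage of 6 epithelial markers was 93.5% to 100% in cKO and 92.9% to 100% in control lists, and that of 6 immune markers 73.2% to 79.7% in cKO and 73.4% to 84.0% in control lists. The immune median was lower in the cKO list in 5 of 6 pairs. The median of 5 endothelial markers moved with genotype as well. It was 15.8% to 31.2% in cKO and 7.62% to 19.6% in control lists, higher in the cKO list in 6 of 6 pairs. Among these markers Tek, an angiopoietin receptor, averaged 10.1% in cKO and 1.26% in control lists. Pecam1, an adhesion molecule of vessel walls, averaged 18.6% in cKO and 11.9% in control lists. Both were higher in the cKO list in 6 of 6 pairs, and Cdh5 and Kdr in 5 of 6. Tie1 went the other way on average, at 66.4% in cKO and 70.5% in control lists, higher in 3 pairs and lower in 3. The median was 6.80% to 25.8% in cKO and 10.5% to 27.6% in control lists for smooth muscle, and 44.4% to 51.9% in cKO and 43.5% to 50% in control lists for trophoblast. Among the epithelial markers Krt8 averaged 75.3% in cKO and 61.2% in control lists, and Cdh1 87.8% in cKO and 77.3% in control lists. Krt19 was slightly lower in cKO lists, at 97.6% against 98.9%, and so was Foxa2, at 96.3% against 97.6%. The part of these cell types in the results was not tested. Kdm6b itself had coverage of 0 to 7.1%, which does not report on the deletion.

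Every peak in the cluster was weak by its q value. In these bulk libraries a change in the mix of cells and a change of the mark within cells cannot be told apart. The highest −log10 q among peaks that touch the cluster was 1.02, over Mt3 in the control list of GD8.5, and no list had a peak here at −log10 q of 2 or more. Over the 47.1 kb from 2 kb before Mt4 to 2 kb after Mt1 (chr8:94135204-94182327), 17.8% of bases lay inside a peak in all 16 lists. The longest such stretch, 4.31 kb at chr8:94150754-94155063, covers Mt3. The longest stretch inside a peak in no list, 2.02 kb at chr8:94161366-94163387, lies between Mt3 and Mt2. The 4 genes thus fell on either side of a gap: Mt4 and Mt3 were covered in each of the 16 lists, and Mt2 and Mt1 were at 0 in the control list of GD18.5 IS.

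**Figure D1:**
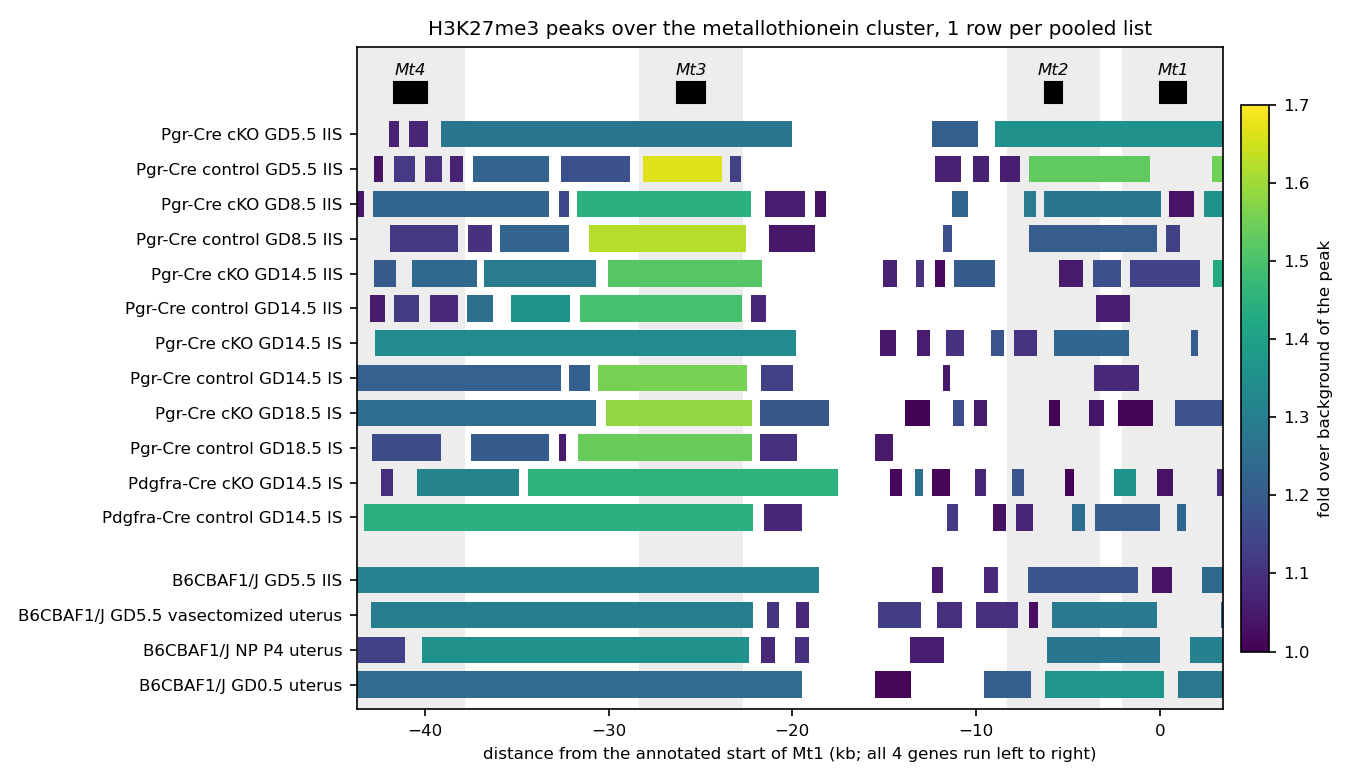
Peaks over the metallothionein cluster in each of the 16 pooled lists (rows; NP P4 is the non-pregnant progesterone group), plotted by distance from the annotated start of Mt1 in kb and coloured by fold over background. Grey bands are the gene windows, which reach 2 kb either side of each gene. A peak lies over Mt3 in every row, and the control rows of GD14.5 and GD18.5 of the Pgr-Cre line are nearly bare over Mt2 and Mt1.

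Mt3, the brain-enriched member, was covered whole in 11 of the 12 Kdm6b set lists and in all 4 B6CBAF1/J lists, so coverage, which cannot pass 100%, shows little of how its mark varied. Its coverage was 100% in all 6 cKO lists, against 89.2% in the control list of GD5.5 IIS and 100% in the other 5 control lists. The means were 100% in cKO and 98.2% ± 4.43 in control lists (SD, n = 6 lists each). With only peaks of a fold of at least 1.5 counted, the cKO minus control difference for Mt3 was -29.6 points ± 78.5 (SD, n = 6 pairs), with coverage above 0 in 2 cKO and 4 control lists. The highest fold of a peak over Mt3 was 1.28, 1.45, 1.52, 1.34 and 1.58 in the Pgr-Cre cKO lists of GD5.5 IIS, GD8.5 IIS, GD14.5 IIS, GD14.5 IS and GD18.5 IS and 1.45 in the Pdgfra-Cre cKO list. The matching control lists had 1.66, 1.62, 1.5, 1.56, 1.54 and 1.44. The groups overlap, and the cKO values at GD5.5 IIS and GD14.5 IS lay below all 6 control values. The peaks with those low values were far longer than the control peaks of their pairs.

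At GD5.5 IIS the peak over Mt3 was 19.1 kb long in the cKO list, against 4.31 kb in the control list. At GD14.5 IS with Pgr-Cre it was 22.9 kb long in the cKO list, against 8.13 kb in the control list. These 2 cKO peaks, the longest of the 6 cKO peaks over Mt3, also had the lowest folds, and they ran on towards Mt4. The Mt3 promoter lay wholly inside a peak in all 16 lists.

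Mt4, the gene of squamous epithelia, was covered in every list but to varying lengths. The Pgr-Cre cKO lists had 49.1%, 91.4%, 69.6%, 83.7% and 100% in the order GD5.5 IIS, GD8.5 IIS, GD14.5 IIS, GD14.5 IS and GD18.5 IS, and the Pdgfra-Cre cKO list had 55.6%. The control lists in the same order had 56.3%, 63.9%, 63.2%, 100% and 63.7%, and the Pdgfra-Cre line control had 93.2%. The groups overlap over nearly their whole range, and each held 1 list at 100%. Coverage was higher in the cKO list in 3 pairs and lower in 3, by 1.53 points on average ± 27.7 (SD, n = 6 pairs). Without the GD18.5 IS pair or the GD8.5 IIS pair the mean difference turned to -5.43 and -3.67 points. The Mt4 promoter lay wholly inside a peak in 5 of 6 cKO lists, 3 of 6 control lists and 4 of 4 B6CBAF1/J lists.

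Mt2, a metal-induced member, had its highest coverage early in gestation in both genotypes. The Pgr-Cre cKO lists had 100%, 74.1% and 33.4% at the IIS for GD5.5, then GD8.5, then GD14.5, and 73.8% and 23.1% at the IS for GD14.5 and GD18.5. Their control lists had 90.4%, 77.5% and 3.8% at the IIS, and 5.90% and 0 at the IS. In the Pdgfra-Cre pair the values were 23.1% in the cKO list and 37.6% in the control list. Both genotypes were thus above 70% at GD5.5 and GD8.5, and the 3 later Pgr-Cre line controls held less than any other list.

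The cKO minus control difference for Mt2 averaged 18.7 points ± 29.1 (SD, n = 6 pairs), with 4 pairs higher and 2 lower in the cKO list. It was 67.9 points in the Pgr-Cre GD14.5 IS pair, and without that pair the mean was 8.88 points. Counting only peaks with a fold of at least 1.5 gave -12.9 points ± 31.6 (SD, n = 6 pairs), a value that rests on 1 list, the control of GD5.5 IIS at 77.4%, and without its pair it was 0. Peaks over Mt2 reached a fold of 1.35 in cKO and 1.53 in control lists, both at GD5.5. The promoter with its 3 metal response element cores was wholly inside a peak in the cKO list of GD5.5 IIS and in part in that of GD8.5 IIS, against wholly inside in the control lists of both days. In the other 4 lists of each genotype it lay outside every peak.

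Mt1, the other metal-induced member, had the largest mean difference between genotypes of the 4 genes. The Pgr-Cre cKO lists had 100%, 82.6% and 80.8% at the IIS for GD5.5, then GD8.5, then GD14.5, and 13.5% and 77.4% at the IS for GD14.5 and GD18.5. Their control lists had 38.2%, 48.3% and 7.33% at the IIS, and 16.1% and 0 at the IS. In the Pdgfra-Cre pair the values were 35.6% in the cKO list and 45.6% in the control list. Every Mt1 control value was under 50%, whereas 4 of 6 cKO values were above 75%; the ranges overlap through the 2 cKO lists of GD14.5 IS.

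Over the 6 pairs Mt1 averaged 65.0% ± 33.0 in cKO lists and 25.9% ± 20.7 in control lists, and the paired difference was 39.1 points ± 38.3 (SD, n = 6 pairs). The difference was 61.8, 34.3 and 73.5 points in the 3 IIS pairs and 77.4 points in the GD18.5 IS pair. It was -2.55 points in the Pgr-Cre GD14.5 IS pair and -9.99 points in the Pdgfra-Cre GD14.5 IS pair. The mean was 20.8 points at equal covered length, where each list keeps its strongest peaks up to a common length, and -6.36 points ± 15.6 (SD, n = 6 pairs) when only peaks with a fold of at least 1.5 were counted. That last value rests on 1 list, the control of GD5.5 IIS at 38.2%, and without its pair it was 0. The 4 positive values of the full lists are all the pairs other than those of the implantation site at GD14.5. Peaks over Mt1 reached a fold of 1.42 in cKO lists, at GD14.5 IIS, and 1.55 in control lists, at GD5.5 IIS. In the cKO list of GD18.5 IS, from the pair with the largest difference, the highest fold was 1.18, at −log10 q of 0.0145. Most of the Mt1 promoter window lies inside the gene span. The window was wholly inside a peak in 3 of 6 cKO lists and in part in 1, against wholly inside in 0 of 6 control lists and in part in 1. In the Pdgfra-Cre cKO list, where it was wholly inside, the peak had a fold of 1.03 at −log10 q of 0.

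**Figure D2:**
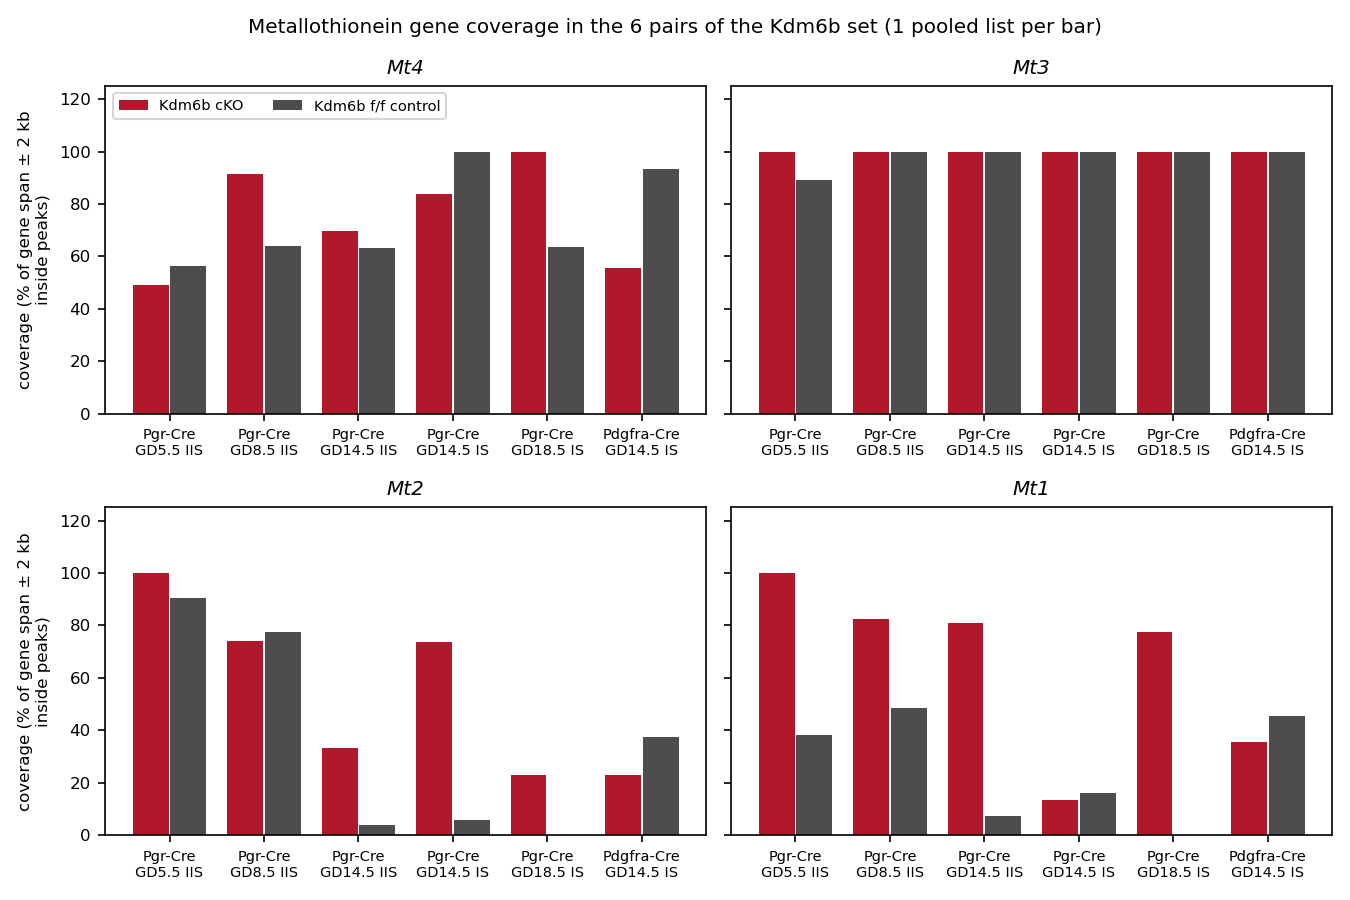
Coverage of Mt4, Mt3, Mt2 and Mt1 (percent of gene span ± 2 kb inside peaks) in each of the 6 pairs, with 1 bar per pooled list, so that no bar has an error. Mt3 is at or near 100% throughout, Mt4 varies in both genotypes, and for Mt1 the cKO bar stands above the control bar in 4 pairs and slightly below it in the 2 pairs of GD14.5 IS.

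Members were also counted where a pair differed by at least 25 points. Mt1 was higher in the cKO list by that much in 4 pairs: at GD5.5 IIS, where 1.2% of all genes were higher by as much, at GD8.5 IIS (1.8%), at GD14.5 IIS (1.4%) and at GD18.5 IS (1.17%). Mt4 was higher with it at GD8.5 IIS and GD18.5 IS, and Mt2 at GD14.5 IIS. Mt2 alone was higher at GD14.5 IS with Pgr-Cre (2.09% of all genes). Mt4 was lower by that much in the Pdgfra-Cre pair (1.27%). The members were chosen on this contrast, so these shares are given as background only.

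Mt2 and Mt1 are close neighbours and could share a peak, so their values are not independent. A single peak of 19.5 kb with a fold of 1.35 covered both windows whole in the cKO list of GD5.5 IIS. In the control list of GD8.5 IIS a peak of 6.99 kb with a fold of 1.2 ran from upstream of the Mt2 promoter to just before that of Mt1. Over the 12 Kdm6b set lists, which share their caller and differ in total covered length, the coverage of Mt2 and Mt1 had a Pearson r of 0.52, given as a description. Coverage of Mt1 had r = -0.75 and that of Mt2 r = -0.61 with the mean coverage of all genes in a list, which itself spans only 22.3% to 25.4%; the part of that trait of the lists in the results was not tested.

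The control course of gestation was described from the lists of the Pgr-Cre line. At the IIS, GD14.5 minus GD8.5 was -73.7 points for Mt2 and -40.99 points for Mt1, and 0.504% of all genes were lower by at least 25 points in that comparison. In the cKO lists the same step was -40.7 points for Mt2 and -1.80 points for Mt1. Over the whole IIS course, GD14.5 minus GD5.5, Mt1 differed by -19.2 points in cKO lists and -30.8 points in control lists. At the IS, GD18.5 minus GD14.5 was -5.90 points for Mt2 and -16.1 points for Mt1 in control lists, against -50.7 and 63.8 points in cKO lists. With 1 pooled list per group none of these steps has an error of its own, and the difference between the genotypes' courses was not tested.

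How far 2 lists of like samples can differ is shown by the 2 control lists of GD14.5 IS, from the Pgr-Cre and the Pdgfra-Cre lines. Mt2 was at 5.90% in the Pgr-Cre line control and 37.6% in the Pdgfra-Cre line control, and Mt1 at 16.1% and 45.6%. The differences, Pgr-Cre line minus Pdgfra-Cre line, were -31.7 and -29.5 points, and 0.462% of all genes were lower by at least 25 points. They are as wide as several of the differences between genotypes. The Pdgfra-Cre line control list is also the shortest of the 12, at 609 Mb, beside 703 Mb for the Pgr-Cre line control list; the part of list length was not tested.

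The cluster as a whole carried more peak length in cKO lists than in control lists in 5 of 6 pairs. The Pgr-Cre cKO lists covered 75.6%, 70.1% and 64.6% of the 47.1 kb at the IIS for GD5.5, then GD8.5, then GD14.5, and 67.7% and 70.6% at the IS for GD14.5 and GD18.5. Their control lists covered 56.8%, 59.5% and 41.9% at the IIS, and 53.0% and 44.1% at the IS. The Pdgfra-Cre pair covered 62.3% in the cKO list and 63.9% in the control list. The cKO values lie close together, the lowest of them falls below 1 control value, and that control is the Pdgfra-Cre line list.

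Mean cluster coverage was 68.5% ± 4.72 in cKO lists and 53.2% ± 8.69 in control lists, with a paired difference of 15.3 points ± 10.0 (SD, n = 6 pairs). Counting only peaks with a fold of at least 1.5 turned the difference to -7.56 points ± 15.6 (SD, n = 6 pairs), and at that limit Mt3 averaged 33.3% in cKO lists and 63.0% in control lists. Of 58 cKO peaks in the cluster, 34 (58.6%) overlapped a control peak of their pair, whereas 45 of 50 control peaks (90.0%) overlapped a cKO peak. Over all peaks of the 6 pairs of lists these shares were 67.3% of cKO and 71.9% of control peaks. The shares differ most in the GD18.5 IS pair, where 3 of 10 cKO peaks and 5 of 6 control peaks overlapped the other list.

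The DNA between the genes was examined as well, by intervals chosen after the peak maps had been seen. Between the windows of Mt3 and Mt2, a stretch of 14469 bases at chr8:94156149-94170617, the cKO lists had 40.96%, 28.5%, 35.1%, 42.98%, 48.3% and 54.3% coverage in the order of the pairs above. The control lists had 18.7%, 22.2%, 5.58%, 16.9%, 24.2% and 27.2%. Every cKO value was above every control value here, a pattern held by 6.54% of 129353 windows of the same length with any peak. The difference averaged 22.6 points ± 8.33 (SD, n = 6 pairs).

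The flanks of the cluster showed the same direction in all 6 pairs, with smaller differences. The 33.8 kb between the windows of Bbs2 and Mt4 had 78.7% to 82.1% coverage in cKO lists and 55.3% to 79.2% in control lists, a difference of 14.0 points ± 8.21. The 30.2 kb between the windows of Mt1 and Nup93 had 58.4% to 77.5% in cKO lists and 51.8% to 72.6% in control lists, a difference of 8.51 points ± 4.61. Between Mt4 and Mt3 the means were 94.6% in cKO lists and 86.7% in control lists, with 5 of 6 pairs higher, and in the 1.3 kb between Mt2 and Mt1 they were 78.6% and 83.3%. Of windows of that 14469-base length across the genome with any peak, 13.1% were higher in the cKO list in all 6 pairs, and the members and their surroundings were chosen on this contrast.

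**Figure D3:**
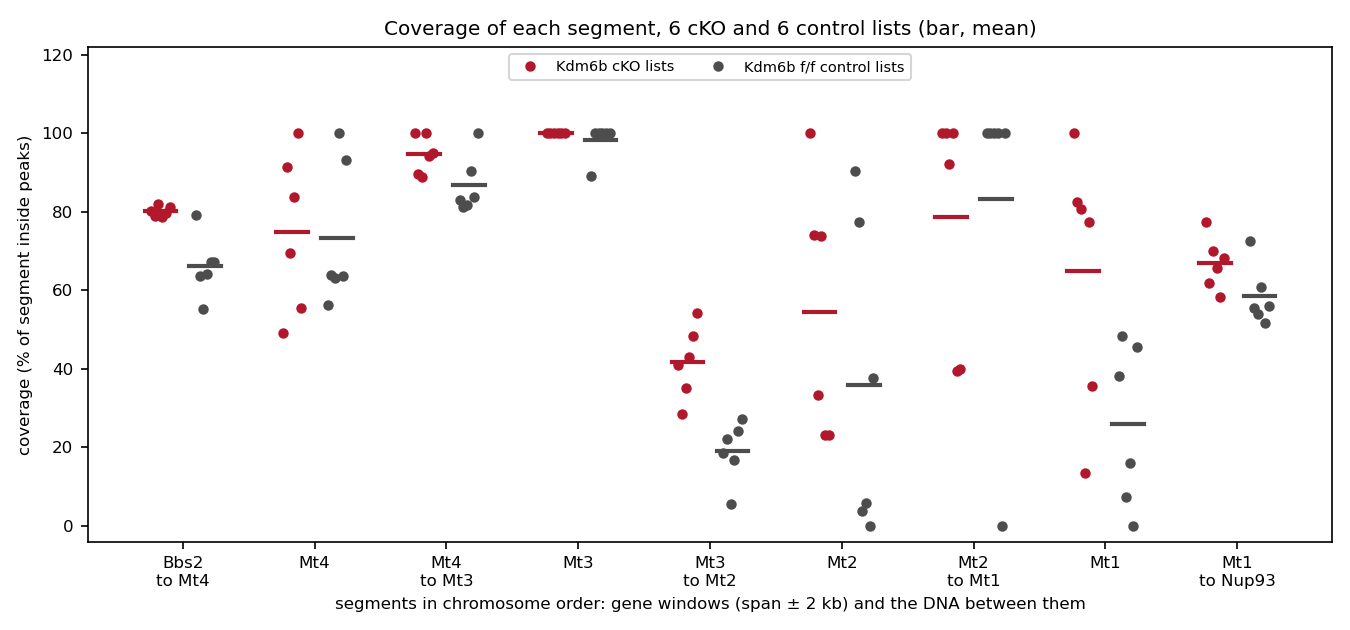
Coverage of the 4 gene windows and the DNA between them, in chromosome order, with a point per list (cKO left, control right in each segment) and a bar at the mean of 6 lists. The cKO points stand clear of the control points only in the segment between Mt3 and Mt2, while Mt4, Mt2 and Mt1 spread widely in both genotypes.

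The marked stretch ended before the neighbouring genes. Nudt21 and Ogfod1, which lie before Bbs2, had coverage of 0 in all 16 lists. In the 12 Kdm6b set lists, Bbs2, a gene of the cilium's BBSome complex, had 4.00% to 7.84% and Nup93, a nuclear pore subunit, 5.00% to 7.21%. Beyond Nup93, Slc12a3, the thiazide-sensitive salt cotransporter of the kidney, had 47.3% ± 14.46 in cKO lists and 38.3% ± 11.0 in control lists. Herpud1, a gene of the endoplasmic reticulum stress response, had 0 to 5.06%, and Nlrc5, a regulator of MHC class I genes, had 12.7% ± 9.73 in cKO lists and 6.20% ± 2.35 in control lists (SD, n = 6 lists each). The stretch from before Mt4 to beyond Mt1 thus lay between 2 genes of low coverage. Its own coverage was uneven, with means of 41.7% in cKO and 19.1% in control lists between Mt3 and Mt2.

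In each B6CBAF1/J list Mt3 and Mt4 had more coverage than Mt2 and Mt1, an order that several Kdm6b set lists did not share. Mt3 was at 100% in all 4 lists, and Mt4 had 99.7% after natural mating, 87.4% after mating to a vasectomized male and 83.7% with progesterone, against 100% at GD0.5. Mt2 had 78.4%, 72.4% and 57.1% in those 3 lists, against 84.7% at GD0.5. Mt1 had 56.4%, 36.1% and 70.6%, against 85.9% at GD0.5. GD0.5 thus had the highest coverage of Mt2 and Mt1, the progesterone list the lowest of Mt2 and the vasectomized list the lowest of Mt1.

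By at least 25 points, Mt1 was lower than at GD0.5 after natural mating (1.61% of all genes were lower by as much) and after mating to a vasectomized male (1.8%), and Mt2 was lower with progesterone (2.94%). Whole-cluster coverage was 73.7%, 73.1% and 67.5% in the natural mating, vasectomized and progesterone lists, against 79.9% at GD0.5. A single peak reached from Mt4 to Mt3 in all 4 lists, and its bases common to the 4 ran for 17.8 kb at chr8:94138714-94156534. In the progesterone list that peak took in only the end of Mt4, and a separate peak with a fold of 1.13 lay over the start of the gene. The Mt1 promoter window was wholly inside a peak in the natural mating and GD0.5 lists, in part in the progesterone list and outside in the vasectomized list. The Mt2 promoter window was inside a peak in the natural mating list alone. In the GD0.5 list a peak with a fold of 1.36 began at chr8:94172621, just past the end of that window. The peak before it in that list ended at chr8:94171863, so the whole window lay in the gap between these peaks. In the natural mating list a peak with a fold of 1.18 began at chr8:94171687, before the window. There is 1 pooled list per group, the GD5.5 natural mating list is of the IIS while the others are of whole uterus, and these differences have no replicate check.

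**Figure D4:**
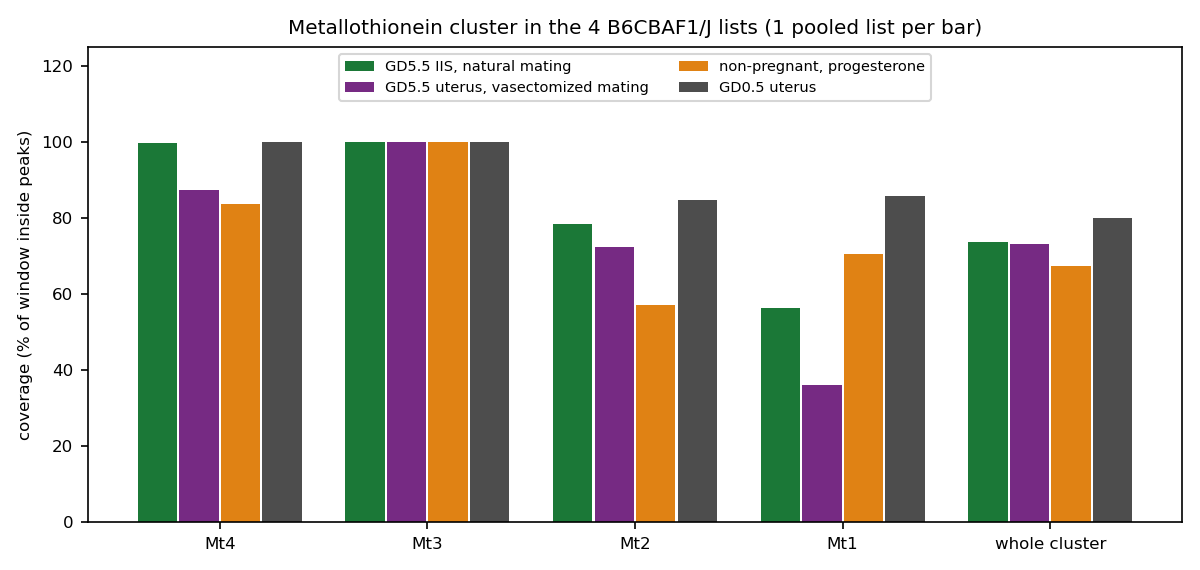
Coverage of each metallothionein gene and of the whole cluster (percent of the window inside peaks) in the 4 B6CBAF1/J lists, with 1 bar per pooled list and no error. Mt3 stands at 100% in all 4, and the GD0.5 bar is the highest, alone or tied, for every gene and for the cluster.

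Among 3218 genes elsewhere in the genome whose coverage varied by an SD of at least 10 points over the 12 Kdm6b set lists, those most like the cluster were ranked by Pearson r with its coverage. They were Prss23, a serine protease (r = 0.89), AI429214 (0.85), the glucocorticoid-induced kinase Sgk1 (0.85), the keratin-associated Krtap4-8 (0.85) and the collagen gene Col8a1 (0.84). Their coverage ran from 0 to 37.2% for Prss23, from 36.5% to 68.1% for Sgk1 and from 11.1% to 65.2% for Col8a1. These are the top 5 of a long ranking over 12 lists that share a caller and a Cre contrast, and are given as a description.

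The wider metal-handling system was followed with a list of 40 genes, Mtf1 and the zinc, copper and iron transporters and storage proteins among them. The list was chosen with earlier results of these data known, so its p values are not those of an independent test. Of the 40, 24 had a mean coverage under 5%, against 52.8% of all 21627 genes, and 14 of these were at 0 in all 16 lists, Mtf1 and the ferritin heavy chain gene Fth1 included. For the other 16, limma tested the 6 differences between paired lists, and p was adjusted by Benjamini-Hochberg over all 10204 genes tested. Of these 16, 2 rose, 0 fell and 14 did not pass the test, and 5 had an unadjusted p under 0.05, against 3287 (32.2%) of all genes tested. The background was 7.98% of tested genes that rose and 6.45% that fell. The median difference was 0.41 points over the 16 genes and 0 over all tested genes.

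Slc39a8, a zinc importer also known for carrying manganese and cadmium, rose in cKO lists. Its coverage was 61.0%, 60.3% and 47.9% at the IIS of cKO mice on GD5.5, on GD8.5 and on GD14.5, 50.7% and 55.0% at the IS of cKO mice on GD14.5 and on GD18.5, and 53.6% in the Pdgfra-Cre cKO list. The control lists had 38.2%, 38.6%, 36.7%, 29.8%, 26.03% and 29.5% in the same order. Every cKO list was above every control list, as in 3.16% of the 14676 genes with any peak in the set, and the difference averaged 21.6 points ± 5.86 (SD, higher in 6 of 6 pairs, adjusted p = 0.00614 by limma). With all lists held to an equal covered length it was 10.8 points and the call was lost (limma adjusted p = 0.143), while over the other alternatives that gave a value the adjusted p ran from 0.00136 to 0.0267.

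Slc39a10, a zinc importer of the cell surface, rose as well, to 35.1% ± 5.2 in cKO lists, against 24.2% ± 5.35 in control lists. The difference was 10.9 points ± 4.47 (SD, higher in 6 of 6 pairs, adjusted p = 0.0178 by limma). The call was lost without the GD8.5 IIS, the Pgr-Cre GD14.5 IS or the GD18.5 IS pair, at limma adjusted p of 0.0579, 0.0556 and 0.0548, and the adjusted p went down to 0.00866 over the alternatives.

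The copper exporter Atp7a, on the X chromosome, had 48.7% ± 15.1 in cKO lists and 69.1% ± 3.16 in control lists. Its difference of -20.4 points ± 13.8 was negative in 6 of 6 pairs and did not pass the test (adjusted p = 0.0542 by limma), but it passed at equal covered length (0.0360), with 5 kb flanks (0.0470), with the median difference subtracted (0.0334), unpaired (0.0475) and without the Pgr-Cre GD14.5 IS pair (0.0366). Without any 1 of the other pairs its limma adjusted p ran from 0.0747 to 0.123. Slc30a8, a zinc exporter known from pancreatic islets, had 48.4% ± 10.4 in cKO lists and 61.6% ± 11.4 in control lists. Slc39a4, the intestinal zinc importer, had 57.1% ± 10.8 in cKO lists and 66.7% ± 18.2 in control lists. Slc30a2, a zinc exporter of the mammary gland, had 92.6% ± 3.48 in cKO lists and 85.3% ± 9.32 in control lists, and none of these 3 passed (limma adjusted p = 0.0981, 0.399 and 0.148).

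**Figure D5:**
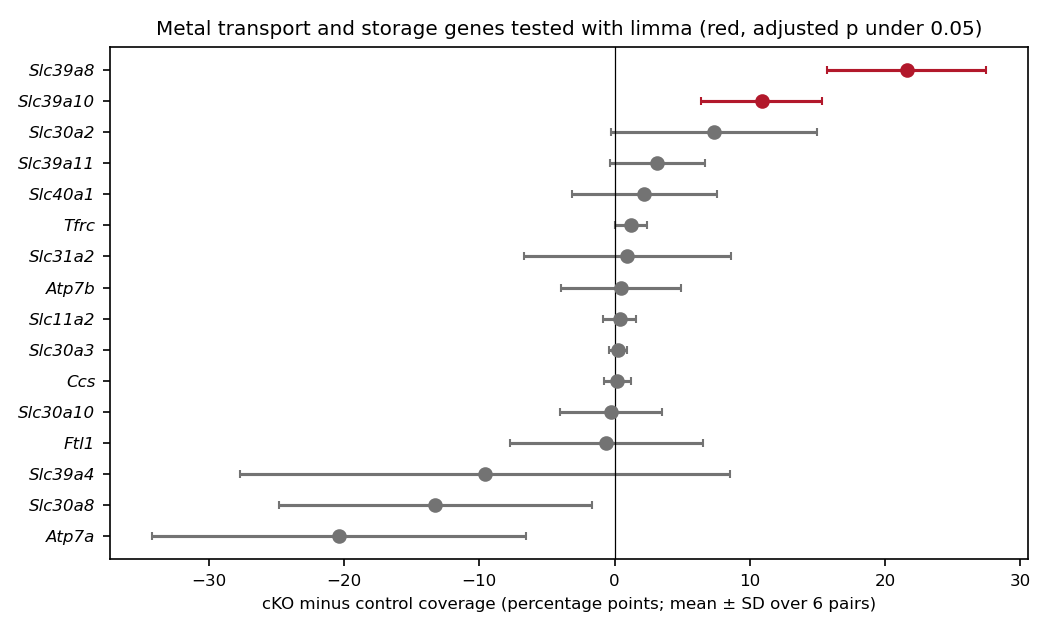
Mean difference in coverage, cKO minus control in percentage points, for the 16 metal-handling genes that were tested, with the SD over 6 pairs as bars and the genes past the limma threshold in red. Slc39a8 at 21.6 points and Slc39a10 at 10.9 points are the genes in red, and Atp7a lies lowest at -20.4 points.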

How the data were processed

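H3K27me3 CUT&RUN peaks of purified mouse uterine fibroblasts were analysed from 16 deposited lists, each pooling the 3 libraries of a group. The submitters' processing notes name STAR 2.7.5c with the mm10 genome for alignment, Picard, samtools 1.10 and bedtools 2.29.1 for handling, and macs2 2.2.7.1 as the caller of the broad peaks. The deposited lists give each peak's position, its score (not used), the fold over background as a ratio, and −log10 p and −log10 q; per the labels no normalization between lists is stated. Because lists pool libraries, n counts lists or pairs of lists, and spread between animals within a group is not seen.

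Peaks were merged within a list. Coverage is the percent of a gene span (RefSeq GRCm38.p6, the patch release of mm10) plus 2 kb on either side inside merged peaks. Pairs were 1 cKO and 1 control list of the same Cre line, gestation day and site. The 4 genes, the metal list of 40 genes and all other lists were chosen with earlier results of these data known. Named are the 4 genes, the 4 nearest protein-coding genes on either side, the metal list genes past the test and the 6 of them with the largest differences, and the 5 genes most like the cluster; 1 gene under this rule is not reported here. The metal list was tested with limma 3.58.1 in R 4.3.3 on the paired differences of all genes whose mean coverage reached 5%. This fit, tested on simulated data with 200 of 10204 genes changed, recovered 25.4% of genes shifted by 10 points, 62.7% at 20 points and 86.4% at 40 points, with 7.20% of 125 calls false. In the real lists 1472 genes were called, far more than were changed in the simulation, so these rates need not hold for the real calls. Alternatives were equal covered length (strongest peaks of each list up to 80% of the shortest list), minimum −log10 p of 1, −log10 q of 2 or fold of 1.5, no flank or 5 kb flanks, pairs left out in turn, no filter, subtraction of the median difference, an unpaired fit and a stricter overlap. The intervals between the genes were added after the data had been seen.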

Additional observations from a re-analysis of the deposited data

Results flagged for a closer look

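Among the 6 cKO minus control differences of each gene and of the whole cluster, a single value stood apart from the others. Mt3 differed by 10.8 points in the Pgr-Cre GD5.5 IIS pair, at 100% in the cKO list and 89.2% in the control list, while the other 5 pairs differed by 0. The spread of those 5 is fixed at 0 because both lists of each pair covered the Mt3 window whole.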

How the results depend on the processing

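The members' peaks are weak, and what counts as a peak sets the results. With peaks limited to a fold of 1.5 or more, the cKO minus control difference turned to -7.56 ± 15.6 points (SD over 6 pairs) for the whole cluster and was -29.6 ± 78.5 points for Mt3. For Mt1 (-6.36 ± 15.6 points) and Mt2 (-12.9 ± 31.6 points) it rests on 1 list, the control of GD5.5 IIS, and was 0 without its pair, a combination chosen after seeing the data in which Mt3 differed by -20 points. All 3 B6CBAF1/J differences of the cluster from GD0.5 became 0, because no peak was left there: the highest fold in those lists was 1.36. At −log10 q of at least 2 no peak was left in the cluster, so its difference, that of Mt1 and all 3 from GD0.5 were 0, limma called 0 metal list genes (1 tested) and 5 of all genes. At −log10 p of at least 1, GD5.5 after natural mating differed from GD0.5 by -20.0 points and after mating to a vasectomized male by -19.3 points, in place of -6.20 and -6.85; these were -4.78 and -1.40 points with no flank and -2.80 and -2.45 with 5 kb flanks. With 5 kb flanks the Mt3 difference was 8.10 points and 4 metal list genes passed, and at equal covered length 641 of all genes passed, in place of 1472. Mt4 changed sign with no flank (-14.7 points). Leaving out 1 pair at a time gave 13.0 to 18.7 points for the cluster, 31.4 to 48.9 for Mt1, 8.88 to 25.4 for Mt2, 0 to 2.17 for Mt3 and -5.43 to 9.35 for Mt4, with 593 to 1122 of all genes and 1 to 2 of the metal list past the test. Subtracting the median difference over all genes moved all genes past the test to 1889, and the unpaired fit to 1442. Equal covered length kept the cluster at 16.7 points, Mt1 at 20.8 and Mt2 at 10.5 points, and raised Mt4 to 24.6 points. By an overlap of at least 50% of a peak's length, 24 of 58 cKO peaks in the cluster overlapped a control peak, against 51.6% of all cKO peaks. The cause of these changes was not tested. No paired analysis was possible because replicate numbers belong to libraries and the lists pool them; pairs here are of lists.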
